A study of Mus musculus with 8 samples.

Results

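The genes described are 10 that encode matricellular proteins, matrix proteoglycans, a metalloproteinase inhibitor and a metalloproteinase: Tgfbi, Postn, Ccn1, Ccn2, Edil3, Fndc1, Dcn, Aspn, Timp1 and Mmp14. They were picked from 18193 named genes because their signals had shown opposed patterns between the RNAs of this series, so their differences are a description and carry no test. All 26 probe sets annotated to them were read, 18 on array type A and 8 on array type B. The study measured total RNA of primary mouse myotubes, the multinucleated cells formed by fusion of muscle precursors, to find genes regulated by Egr3, a zinc-finger transcription factor induced by activity. Of 4 RNAs, each was read by 2 arrays, 1 of type A and 1 of type B, which gave 8 arrays.

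One RNA, RNA419, is labelled wildtype and another, RNA420, truncated Egr3, and both have "grow" as the treatment type. RNA275 has acclimatization as its treatment type, and RNA276 has neither a treatment nor a genotype. The labels give no strain, age, culture time or route by which the truncated Egr3 was introduced, nor whether wildtype refers to the protein or to the cells. Each label has a single RNA and so no replicate, and every value describes these RNAs only.

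Matricellular proteins are secreted into the extracellular matrix and signal through integrins and growth factors rather than bearing load. Small leucine-rich proteoglycans such as decorin coat collagen fibrils and hold TGF-beta, while metalloproteinases cut matrix proteins and tissue inhibitors of metalloproteinases block them. In muscle these proteins are known mainly from repair and fibrosis, and much of their RNA comes from fibroblasts. In RNA of a whole culture, fewer cells of a type and less RNA per cell cannot be told apart.

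By its brightest probe set on type A, each of the 10 genes had its highest or its lowest signal in the truncated-Egr3 RNA. The signal was highest there for 7 of 10 (Tgfbi, Postn, Edil3, Fndc1, Dcn, Aspn and Mmp14), against 24% of the 11154 genes above the signal floor in some RNA. It was lowest there for 3 of 10 (Ccn1, Ccn2 and Timp1), against 26.5%. Type B probe sets of Ccn1, Fndc1, Dcn and Mmp14 did not give the truncated-Egr3 RNA the same place. That of Fndc1 was brighter than its type A probe set in wildtype, RNA275 and RNA276, and was lowest in truncated Egr3. The counts here use type A for all 10. Of the 10, 5 were 2-fold or more below the truncated-Egr3 RNA in wildtype (Tgfbi, Aspn, Fndc1, Edil3 and Dcn), where 0.534% of 10307 measured genes were. Lying 2-fold or more above it in wildtype were 2 of 10, Timp1 and Ccn2, where 1.13% were. The difference was above 0 for 3 of 10, against 49.9% of all genes. The highest of the 4 RNAs was 2-fold or more above the lowest for 9 of 10 (all but Mmp14), against 14.8%. Mmp14 fell short by its brightest probe set only: its other type A probe set gave 2.23-fold and its type B probe set 3.29-fold. Since the genes were chosen for such differences, nothing is read from these counts.

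**Figure D1:**
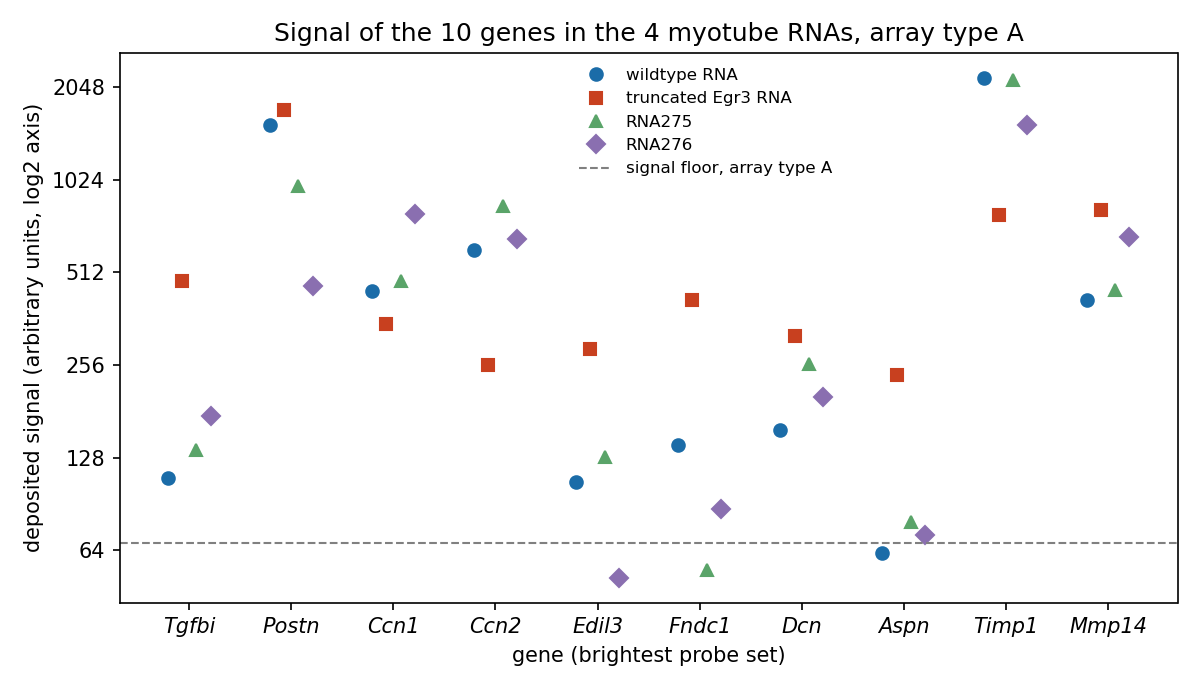
Deposited signal of the brightest probe set of each gene on array type A (log2 axis, arbitrary units) in the wildtype, truncated-Egr3, RNA275 and RNA276 samples, 1 array each; the dashed line is the signal floor of 67.6. The truncated-Egr3 square is the uppermost point of 7 genes and the lowest of Ccn1, Ccn2 and Timp1; levels of different genes are not comparable.

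The floor used throughout is the median signal of the wildtype and truncated-Egr3 arrays on type A (67.6) and their 60th percentile on type B (112.6). Signals below it were set to it, so a fold against such a signal is a lower bound. Of the 26 probe sets, 22 were above the floor in some RNA. The other 4 all belonged to Edil3. Only technical error could be measured: 100 probe sets present on both array types gave an SD of 0.179 for 1 wildtype minus truncated-Egr3 log2 difference and of 0.150 for RNA276 minus RNA275. That SD holds no variation between cultures. The shared probe sets were not floored or matched in signal to the 10 genes, so the SD may be too small for dim probe sets.

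Promoter letters are shown for 4 genes, those with a match of a motif searched below. Tgfbi and Mmp14 were higher in the truncated-Egr3 RNA than in wildtype, and Timp1 and Ccn1 were lower. Aspn, Fndc1 and Postn had no match and are not printed. No link of motif to direction is read from these 4. The letters are the 250 bases before the gene's start in RefSeq, build GRCm38.p6, printed 5′ to 3′ on the gene's strand. Matched motifs are in capitals. The stretches are chr13:56609336-56609585 (plus strand) for Tgfbi, chr14:54431348-54431597 (plus) for Mmp14, chrX:20869916-20870165 (plus) for Timp1 and chr3:145649986-145650235 (minus) for Ccn1.
Tgfbi: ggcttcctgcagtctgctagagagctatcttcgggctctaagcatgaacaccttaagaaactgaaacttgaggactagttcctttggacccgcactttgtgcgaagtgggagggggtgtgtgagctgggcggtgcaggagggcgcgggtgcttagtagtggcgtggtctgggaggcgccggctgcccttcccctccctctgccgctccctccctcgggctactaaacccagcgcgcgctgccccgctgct
Mmp14: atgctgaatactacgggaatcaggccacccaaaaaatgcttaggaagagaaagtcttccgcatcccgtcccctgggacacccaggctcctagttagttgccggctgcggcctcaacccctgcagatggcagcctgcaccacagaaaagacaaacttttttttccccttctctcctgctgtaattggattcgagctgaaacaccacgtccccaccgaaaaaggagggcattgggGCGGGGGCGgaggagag
Timp1: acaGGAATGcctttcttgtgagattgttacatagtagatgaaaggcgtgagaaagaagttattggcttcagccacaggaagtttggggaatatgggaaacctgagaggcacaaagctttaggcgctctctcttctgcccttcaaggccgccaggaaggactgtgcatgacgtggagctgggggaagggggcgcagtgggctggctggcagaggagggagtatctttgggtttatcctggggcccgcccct
Ccn1: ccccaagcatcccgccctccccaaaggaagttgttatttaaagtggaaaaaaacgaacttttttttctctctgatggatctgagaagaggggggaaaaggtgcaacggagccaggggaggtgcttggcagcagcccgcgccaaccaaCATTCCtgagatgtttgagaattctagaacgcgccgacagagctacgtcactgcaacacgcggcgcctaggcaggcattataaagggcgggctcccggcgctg

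Windows of 300 bases, 250 before and 50 after the start, were found for 7 of the 10 genes, with 2 windows for Postn. In these 8 windows and in all 32851 RefSeq windows, 4 motifs were searched on both strands. The Egr site GCGNGGGCG was in 2 of 8, those of Mmp14 and Tgfbi, and in 5.55% of all windows. In Mmp14 it lies from base -17 to base -9 relative to the start; in Tgfbi it lies on the opposite strand from base 16 to base 24 after the start, outside the printed stretch. The TEAD site GGAATG was in 2 of 8, those of Timp1 (plus strand) and Ccn1 (opposite strand), and in 14.7% of all. The AP-1 site TGANTCA and the CArG box had 0 matches in the 8 windows, with 7.81% and 1.63% of all windows holding one. No matches of different motifs overlapped in these windows. A match is a run of letters, not a bound site.

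Tgfbi encodes a secreted protein of the fasciclin family that binds collagen and integrins and is induced by TGF-beta. Its brightest probe set read 110 in the wildtype RNA, 479 in the truncated-Egr3 RNA, 135 in RNA275 and 175 in RNA276. The truncated-Egr3 RNA stood alone, 2.74-fold above the next RNA, while the other 3 lay between 110 and 175. The wildtype minus truncated-Egr3 log2 difference was -2.12. Its 3 other probe sets gave -1.38, -1.30 and -0.43. The smallest of these came from a probe set that read 161 in wildtype, 216 in truncated Egr3, 158 in RNA275 and 223 in RNA276, so RNA276 and not the truncated-Egr3 RNA was highest there. By their names, 3 of the 4 probe sets, the brightest among them, may also bind other transcripts. The 1 without such a mark gave -1.38. The direction between wildtype and truncated Egr3 was the same by all 4 probe sets, but the size was not.

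Postn, periostin, is the fasciclin-family relative of Tgfbi and supports collagen cross-linking. It read 1539 in the wildtype RNA, 1734 in the truncated-Egr3 RNA, 977 in RNA275 and 461 in RNA276. The highest level was 3.76-fold above the lowest, and the order ran from the truncated-Egr3 RNA through wildtype and RNA275 to RNA276. The wildtype minus truncated-Egr3 log2 difference was -0.17, no larger than the technical SD. The wide step was between the other RNAs: RNA276 was 2.12-fold below RNA275. Postn therefore did not share the pattern of Tgfbi.

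Ccn1 and Ccn2 encode cysteine-rich matricellular proteins that bind integrins and are induced by growth factors, TGF-beta and mechanical load. Ccn2 had 1 probe set, which read 605 in the wildtype RNA, 255 in the truncated-Egr3 RNA, 842 in RNA275 and 658 in RNA276. Only the truncated-Egr3 RNA was low. It lay 2.37-fold below the next lowest RNA, which was wildtype, and the wildtype minus truncated-Egr3 log2 difference was 1.25.

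Ccn1 differed less. Its brightest probe set read 446 in wildtype, 349 in truncated Egr3, 479 in RNA275 and 791 in RNA276, so RNA276 was high and the other 3 were close. The 4 Ccn1 probe sets, 2 on each array type, gave wildtype minus truncated-Egr3 log2 differences between 0.10 and 0.37. All were above 0, and 1 of them was under the technical SD. For RNA276 minus RNA275 all 4 were above 0 as well, between 0.43 and 0.86, while the single Ccn2 probe set gave -0.36. On type B the probe sets read 400 and 330 in wildtype, 310 and 289 in truncated Egr3, 194 and 168 in RNA275, and 262 and 306 in RNA276. There RNA275 and not the truncated-Egr3 RNA was lowest, so the place of the truncated-Egr3 RNA as the lowest of the 4 held on type A only.

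Edil3 encodes a secreted integrin-binding protein known from blood vessel development. Its brightest probe set read 107 in the wildtype RNA, 288 in the truncated-Egr3 RNA, 129 in RNA275 and 52.1 in RNA276. The truncated-Egr3 RNA was 2.24-fold above the next, and RNA276 was below the floor. The wildtype minus truncated-Egr3 log2 difference was -1.43. The other readable probe set read 77.1 in wildtype and 167 in truncated Egr3 (a log2 difference of -1.12), and 56.3 and 52.2, both below the floor, in RNA275 and RNA276. Of the 6 Edil3 probe sets these 2 were readable, and they had the same direction.

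Fndc1 encodes a protein with fibronectin type III domains. On type A arrays its signal was 141 in wildtype, 416 in truncated Egr3, 55.3 in RNA275 and 87.0 in RNA276. By this probe set the truncated-Egr3 RNA was 2.95-fold above the next. The probe set on type B read 304, 197, 399.5 and 378 in the same order of RNAs. There the truncated-Egr3 RNA was the lowest, and the wildtype minus truncated-Egr3 log2 differences were -1.56 on type A and 0.63 on type B. The direction of Fndc1 is therefore unsettled, and which transcripts the probe sets read was not analysed here.

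Dcn and Aspn encode decorin and asporin, related leucine-rich proteoglycans that bind collagen and TGF-beta. Aspn read 62.5 in the wildtype RNA, 238 in the truncated-Egr3 RNA, 78.8 in RNA275 and 71.7 in RNA276. The truncated-Egr3 RNA was 3.02-fold above the next, and the other 3 lay at or near the floor. The fold between wildtype and truncated Egr3 is at least 3.53. The other Aspn probe set read 50.3 in wildtype, 178 in truncated Egr3, 61.2 in RNA275 and 38.6 in RNA276, which is at least 2.64-fold, and only the truncated-Egr3 RNA was above the floor.

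Dcn was spread more evenly. On type A it read 157 in the wildtype RNA, 317 in the truncated-Egr3 RNA, 257 in RNA275 and 202 in RNA276. The truncated-Egr3 RNA was 1.24-fold above RNA275, so it did not stand alone. The wildtype minus truncated-Egr3 log2 difference was -1.02, just past 2-fold. The probe set on type B was above the floor in RNA276 only, at 208, against 78.2 in wildtype, 79.5 in truncated Egr3 and 103 in RNA275. It gave no difference between wildtype and truncated Egr3 above the floor.

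Timp1 encodes a secreted inhibitor of metalloproteinases. Its single probe set read 2196 in the wildtype RNA, 787 in the truncated-Egr3 RNA, 2159 in RNA275 and 1544 in RNA276. The truncated-Egr3 RNA was the low one, 1.96-fold below RNA276 and 2.79-fold below wildtype. The wildtype minus truncated-Egr3 log2 difference was 1.48, the most positive of the 10.

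Mmp14 encodes a membrane-anchored metalloproteinase that cuts collagen and activates Mmp2. Its brightest probe set read 418 in the wildtype RNA, 814 in the truncated-Egr3 RNA, 447 in RNA275 and 667 in RNA276. The truncated-Egr3 RNA and RNA276 were high, and wildtype and RNA275 were low. The wildtype minus truncated-Egr3 log2 difference was -0.96, just under 2-fold, and the 2 other probe sets gave -0.66 and, on type B, -1.14. The other probe set on type A read 298, 471, 211 and 435 in wildtype, truncated Egr3, RNA275 and RNA276. On type B the values were 220.5, 486, 372 and 726 in the same order, so RNA276 was highest there. By all 3 probe sets Mmp14 was higher in truncated Egr3 than in wildtype and higher in RNA276 than in RNA275. Timp1 went the other way in both comparisons.

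**Figure D2:**
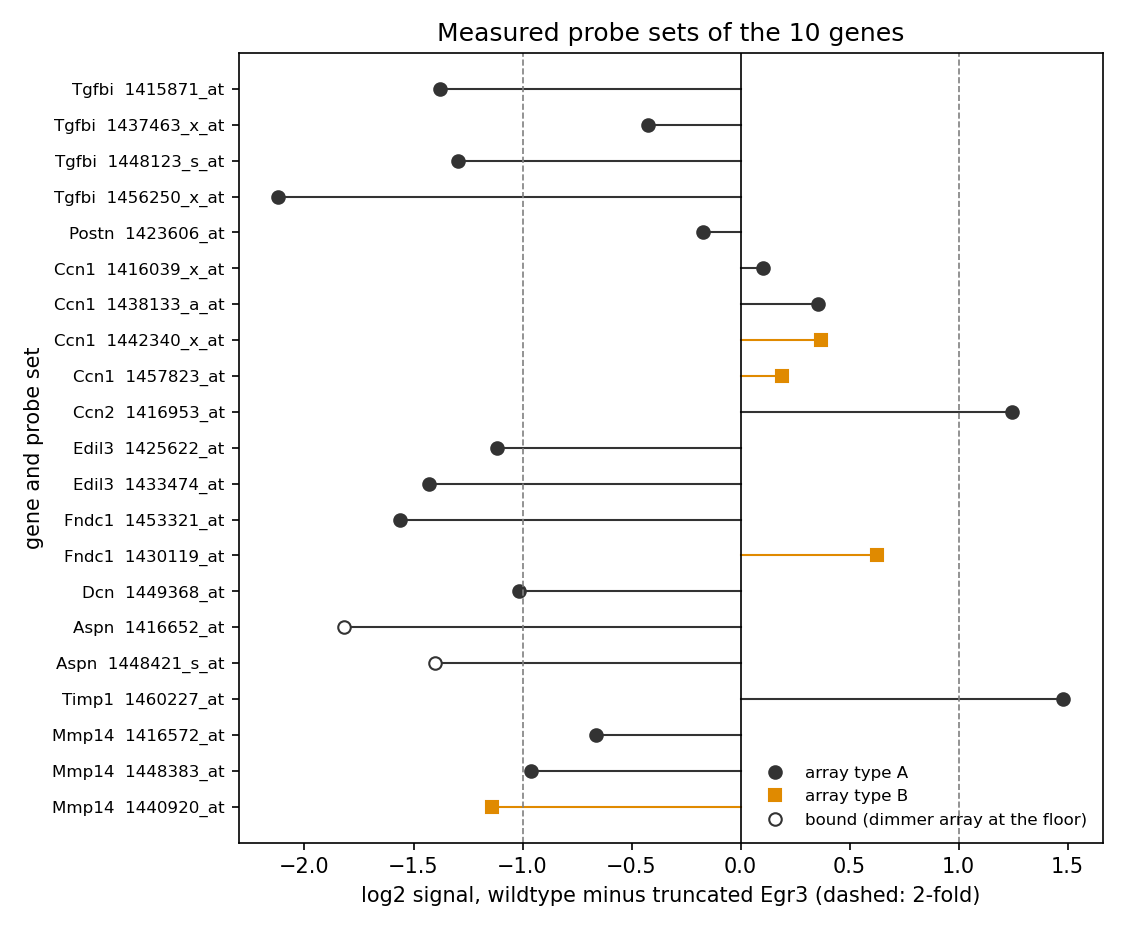
Log2 signal of wildtype minus truncated Egr3 for the 21 probe sets above the floor in at least 1 of these RNAs; circles are array type A, squares type B, open symbols are bounds (wildtype signal below the floor), and dashed lines mark 2-fold. Probe sets of 1 gene lie on the same side of 0 except those of Fndc1, at -1.56 and 0.63.

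Over probe sets, 10 of the 21 measured were lower in wildtype by 2-fold or more, against 0.767% of 18386 probe sets, and 2 of 21 were higher by as much, against 0.963%. In either direction these are 12 of 21, against 1.73%, and 7 of 21 had a difference above 0, against 49%. Of the 22 above the floor in some RNA, 12 were highest in the truncated-Egr3 RNA (25.4% of all probe sets were) and 5 lowest (24.7%). With a margin of 2-fold to every other RNA, 8 were highest there (0.276%) and 1 was lowest (0.346%). Probe sets of 1 gene share its RNA and are not replicates. The 100 probe sets on both array types gave this log2 difference 0.14 higher on average with type A arrays than with type B, a gap larger than the difference by the weakest Ccn1 probe set.

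The comparison of RNA276 with RNA275 sets 2 named RNAs side by side, and the labels do not say what it compares. Postn was at least 2-fold lower in RNA276, the 1 of 10 genes that passed, where 5.09% of 10617 measured genes did. At least 2-fold higher were 0 of 10, where 2.43% did. In either direction it was 1 of 10 against 7.52%, so the share of the 10 genes was near that of all genes here. Above 0 were 4 of 10, against 52.9%. Ccn1, Mmp14, Tgfbi and Fndc1 had log2 differences of RNA276 minus RNA275 of 0.72, 0.58, 0.37 and at least 0.36. Aspn, Dcn, Ccn2 and Timp1 had -0.14, -0.35, -0.36 and -0.48, and Edil3 had -0.93, a bound with RNA276 at the floor. These are values of the brightest type A probe sets. The type B probe set of Dcn gave the opposite sign, at least 0.88, and that of Fndc1 gave -0.08, so neither gene had a settled direction here. Of 20 measured probe sets, 1 of Mmp14 was 2.06-fold higher in RNA276 (2.4% of all probe sets passed 2-fold) and that of Postn was lower (5.19%). In either direction that is 2 of 20, against 7.59%, and 13 of 20 were above 0, against 52%.

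**Figure D3:**
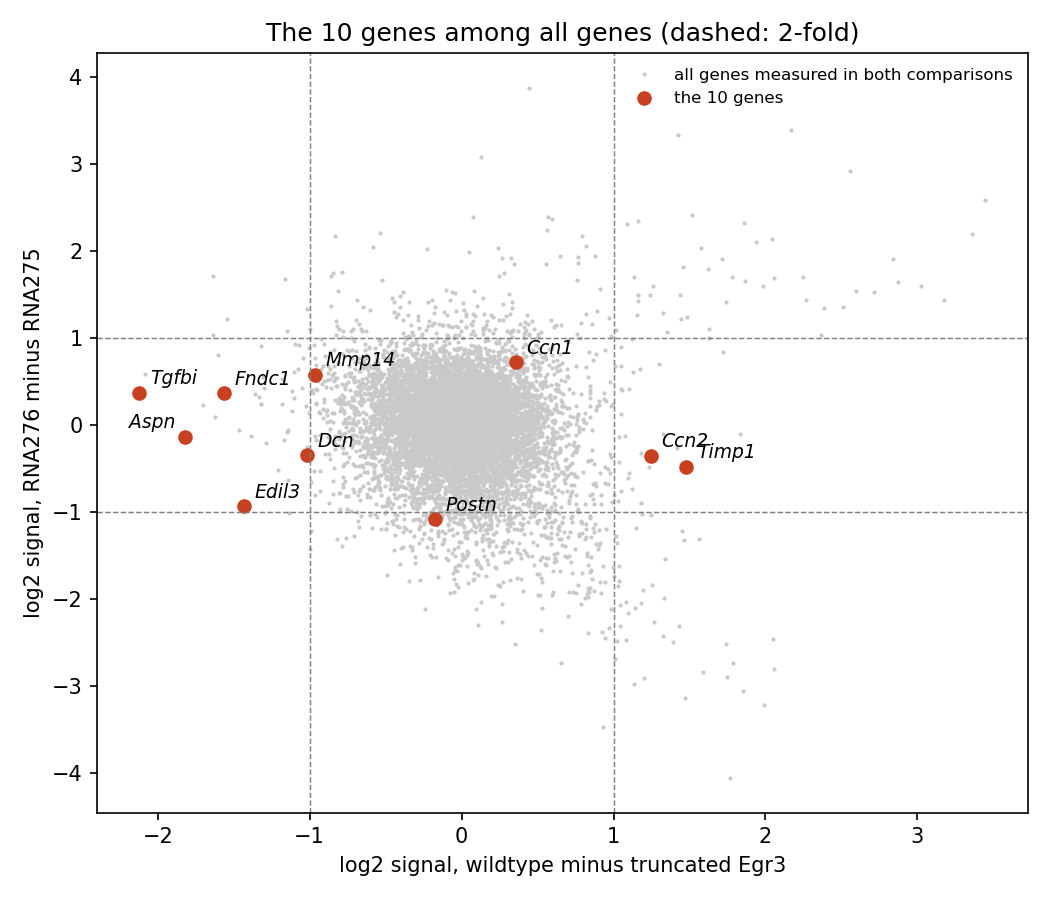
Log2 signal of wildtype minus truncated Egr3 (horizontal) against RNA276 minus RNA275 (vertical) for all genes measured in both comparisons (grey) and the 10 genes (red), with 2-fold marked by dashed lines. The 10 genes spread between -2.12 and 1.48 along the horizontal axis and between -1.08 and 0.72 along the vertical one; Aspn (horizontal), and Edil3 and Fndc1 (vertical), are bounds.

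Among all 4 RNAs, 4 of 10 genes (Tgfbi, Edil3, Fndc1 and Aspn) stood 2-fold or more above each of the other 3 RNAs in truncated Egr3, against 0.206% of 11154 genes. This uses the brightest type A probe set alone, and the type B probe set of Fndc1 was lowest in truncated Egr3. Ccn2 was the 1 of 10 at least 2-fold lower there than in each of the others, against 0.421%. These counts use the contrast by which the genes were picked. The labels do not say whether RNA275 and RNA276 were controls for the truncated-Egr3 RNA.

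Patterns over the 4 RNAs were compared by Euclidean distance of log2 signals centred on each gene's mean. Ranked were 5941 type A genes outside the 10 that were above the floor in every RNA. Nearest to Tgfbi, by its brightest probe set alone, were Ddit3, Stbd1, Dhrs7, Iqgap1 and Higd1a. That probe set may also bind other transcripts, as given above. Ddit3, at a distance of 0.63, read 129 in wildtype, 546 in truncated Egr3, 222 in RNA275 and 332 in RNA276. Nearest to Ccn2 were Hat1, Itga6, Id1, Faap24 and Nasp, at distances from 0.48 to 0.51. Hat1, a histone acetyltransferase, read 202, 118, 280.3 and 305 in the same order. Itga6, an integrin subunit, read 425, 221, 511 and 367 in wildtype, truncated Egr3, RNA275 and RNA276. With 4 RNAs such nearness is a description only.

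Genes of the same roles outside the 10 were read in the same way. Of the other matricellular proteins, 0 of 12 measured were 2-fold apart in either direction, where 1.66% of all measured genes were. Their median wildtype minus truncated-Egr3 log2 difference was -0.01, and that of all genes was -0.0007. Thbs1, a thrombospondin that activates TGF-beta, read 565 in wildtype, 770 in truncated Egr3, 517 in RNA275 and 1374 in RNA276. Fbln5, an elastic fibre protein, read 248, 222, 208 and 451. Both were at least 2-fold higher in RNA276 than in RNA275, as the 2 of 13 measured that passed, where 2.43% of all genes did; 0 of 13 were lower, where 5.09% were, and the median log2 difference was 0.39 against 0.03 for all genes.

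The other leucine-rich proteoglycans had 0 of 5 measured members 2-fold apart in either comparison. Their medians were -0.39 for wildtype minus truncated Egr3, with 1 of 5 above 0, and 0.51 for RNA276 minus RNA275, with 5 of 5 above 0. Podn read 481 in wildtype, 651 in truncated Egr3, 636 in RNA275 and 1124 in RNA276, and Ogn read 321, 421, 205 and 356. Dcn and Aspn, by their brightest probe sets, were further below 0 in the first comparison. In the second the probe sets of Dcn disagreed, as given above.

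Of the other inhibitors and serpins, 0 of 7 measured were 2-fold apart between wildtype and truncated Egr3 (median -0.12), and 0 of 6 between RNA276 and RNA275 (median 0.33). Timp2 read 1297 in wildtype, 1412 in truncated Egr3, 1322 in RNA275 and 2428 in RNA276. Timp3 read 499, 424, 686 and 380. Timp2 and Timp3 thus differed 1.09-fold and 1.18-fold between truncated Egr3 and wildtype, in opposite directions, and Timp4 was below the floor in all 4 RNAs.

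Among the other matrix proteases, a list of metalloproteinases, ADAM and ADAMTS proteases, Bmp1 and the plasminogen activators Plau and Plat, 1 of 14 measured was at least 2-fold lower in wildtype and 0 were higher, with a median of -0.33. That gene was Mmp11, at 70.8 in wildtype, 154 in truncated Egr3, 38.1 in RNA275 and 51.6 in RNA276. Between RNA276 and RNA275, 2 of 13 were higher and 2 lower at 2-fold, where 2.43% and 5.09% of all measured genes were, with a median of -0.07. Adamts1, which cuts proteoglycans, was 4.59-fold higher in RNA276, and Adam19, outside the naming rule, just reached 2-fold. Adam10 and Bmp1, which shed membrane proteins and process procollagen, were 2.73-fold and 2.20-fold lower.

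Integrin subunits had 0 of 7 measured members 2-fold apart between wildtype and truncated Egr3, with a median of -0.10. Between RNA276 and RNA275, 0 were higher and 2 of 7 lower at 2-fold, against 2.43% and 5.09% of all genes, with a median of -0.48. Those were Itga3 and Itgb8, each at least 2.85-fold lower in RNA276. Target genes of TGF-beta, YAP and SRF are a group to which Ccn1, Ccn2 and Tgfbi belong. Tgfbi was higher in truncated Egr3 than in wildtype, and Ccn1 and Ccn2 were lower. The other targets listed had 0 of 17 measured members 2-fold apart between wildtype and truncated Egr3, with a median of 0.20 and 11 of 17 above 0. In RNA276, 3 of 18 were at least 2-fold higher than in RNA275 and 1 was lower, again against 2.43% and 5.09%, with a median of 0.27. Amotl2, Axl and Ankrd1 had log2 differences of 1.26, 1.10 and 1.06, and Skil had -1.02.

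**Figure D4:**
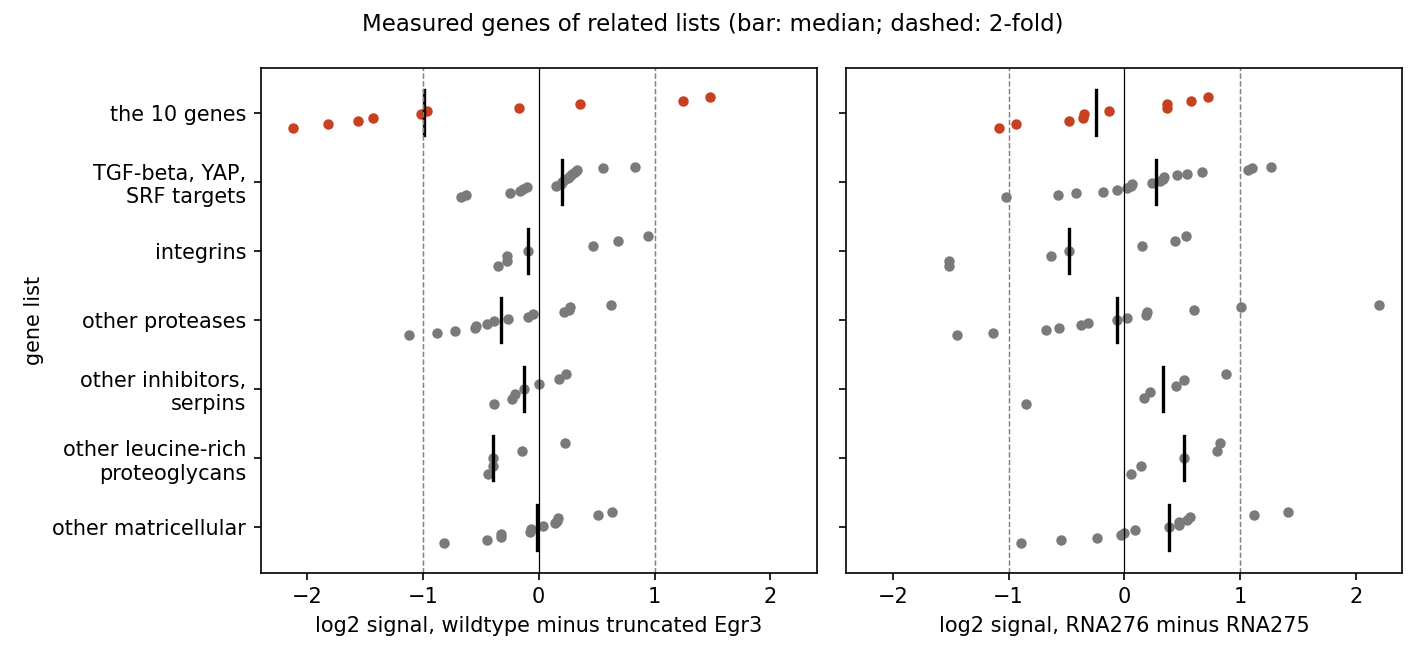
Log2 differences of the measured genes of 6 related lists (grey) and of the 10 genes (red) for wildtype minus truncated Egr3 (left) and RNA276 minus RNA275 (right); each point is a gene, the bar is the median, dashed lines mark 2-fold, and bounds are drawn at their value. On the left Mmp11 is the only listed gene past 2-fold; on the right the lists reach from -1.51 to 2.20.

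Egr3 itself read 769 in wildtype, 830 in truncated Egr3, 1454 in RNA275 and 2627 in RNA276 on type A, and 1419.7, 1039, 1203 and 771 on type B. The 2 probe sets gave different orders, and where they lie relative to the truncation is not known here, so they check no label. The myotube label was borne out by its markers: 12 of 12, among them Ckm, Myog and Acta1, were above the floor in every RNA. Their summed signal was 34147 in wildtype, 29043 in truncated Egr3, 31108 in RNA275 and 33638 in RNA276. Fibroblast markers were also present. Of 10, 5 were above the floor in every RNA, and Pdgfra, Thy1, Dpt and Lum were below it in all 4. Their summed signal was 11111 in wildtype, 11153 in truncated Egr3, 8890 in RNA275 and 10764 in RNA276, with most of it from Col1a1, Col3a1, S100a4 and Col6a3. The median wildtype minus truncated-Egr3 log2 difference of the 6 measured was -0.13, with 2 of 6 above 0. Fap read 153 in wildtype and 266 in truncated Egr3 and Col6a3 read 1344 and 1759, higher in truncated Egr3 as 7 of the 10 genes were, while Col1a1 read 4295 and 3417. The part of fibroblast RNA in the differences was not tested. Smooth muscle and pericyte markers summed to 6814, 4951, 5980 and 5570 in the same order, with 5 of 8 above the floor in every RNA and a median wildtype minus truncated-Egr3 log2 difference of 0.46. Most of that sum came from Acta2 and Tagln, and Cnn1, Myh11 and Rgs5 were below the floor in all 4 RNAs. The sum was lowest in truncated Egr3, as Ccn2, Timp1 and the myotube sum were. The part of such cells in the differences of Ccn2 and Timp1 was not tested. Macrophage markers summed to between 478 and 539, with 11 of 13 below the floor in all RNAs. Endothelial markers summed to between 130 and 186, with 5 of 6 below the floor in all. Adipocyte markers summed to between 140 and 356 with 1 of 4 above the floor, and Schwann and glial markers to between 288 and 520 with 2 of 4.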

How the data were processed

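The deposited values are linear signal intensities, 1 per probe set, already on a common scale when the authors deposited them: the mean after trimming 2% at each end was 150.0 on all 8 arrays. Software and normalization: not given in the sources used here. The intensities were floored and turned to log2. Platform annotation named probe sets, updated by gene number through RefSeq (GRCm38.p6); 20380 probe sets on type A and 14661 on type B had 1 symbol, 691 and 245 had several, and 1555 and 7605 had none. The brightest probe set stood for a gene, on type A where present there and otherwise on type B. A gene was measured in a comparison when at least 1 of its 2 arrays was above the floor, and counted at 2-fold. No test was possible with 1 RNA per label, and the number of arrays limits the precision.

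The members and lists were chosen with earlier results of these data known. From each list up to 4 genes past 2-fold in either comparison were named, largest first, or the 2 largest where none was, and for Tgfbi and Ccn2 the 5 genes nearest in pattern. The alternatives were quantile normalization, equal medians, lower, higher and no floor, 1.5-fold and 3-fold thresholds, and the median over probe sets. A further alternative left out probe sets with names ending in _x_at, _s_at or _a_at. In that alternative Ccn1 was represented by a type B probe set. The counting was tested on simulated data, with changes well past 2-fold planted only in bright type A genes. The noise added there was smaller than the technical SD. That test does not cover dim genes or differences near 2-fold. Python 3.11.15, numpy 2.4.6, pandas 2.3.3 and matplotlib 3.10.9 were used.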

Additional observations from a re-analysis of the deposited data

How the results depend on the processing

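The count of the 10 genes at least 2-fold apart between wildtype and truncated Egr3 was 7, and was 7 or 8 under every alternative tried except the 3-fold threshold, which left 2. Between RNA276 and RNA275 the count was 1. It was 2 with the lower floor and with no floor, 3 at 1.5-fold and 0 at 3-fold. With equal medians it stayed at 1, but Edil3 passed, as a bound, and Postn, at -0.97, did not. Over all genes, 171 were 2-fold apart between wildtype and truncated Egr3. That count was 269 with the lower floor, 1809 with no floor, 957 at 1.5-fold and 46 at 3-fold. Between RNA276 and RNA275 it was 798, and 2967 with no floor, 2387 at 1.5-fold and 202 at 3-fold. Equal medians turned 116 higher and 55 lower genes in wildtype into 93 and 87, and moved the median of all measured type B genes from -0.03 to -0.17.

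None of the log2 differences of the 10 genes changed sign under the alternatives that gave a value. Between wildtype and truncated Egr3 they ranged from -2.18 to -1.20 for Tgfbi, from -1.93 to -1.23 for Aspn, from -1.49 to -1.12 for Edil3, and from -1.03 to -0.81 for Mmp14, which passed 2-fold with equal medians only. Type B probe sets of Fndc1, Dcn and Mmp14 enter none of these alternatives, because type A represented those genes. Signals near the floor limit Aspn, Edil3 and Fndc1: with the higher floor, Aspn and Fndc1 gave no difference of RNA276 from RNA275.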
